A study of Mus musculus with 48 samples.

Results

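The genes described here encode the transporters that carry inorganic ions, acid and base equivalents, phosphate and trace metals across cell membranes. Members were all genes whose array symbol starts with Slc4a, Slc8a, Slc9a, Slc12a, Slc13a, Slc20a, Slc24a, Slc26a, Slc30a, Slc34a, Slc39a or Slc41a and whose probe was detected (detection p under 0.05) on at least 3 arrays, with the brightest probe taken for each gene. Of 74 such genes on the array, 55 met the rule, among 11559 genes tested in all. The other 19, which include the sulfate cotransporter Slc13a1 and the potassium-chloride cotransporter Slc12a5, were not detected on 3 arrays. The symbol rule also takes in 3 binding partners that are not transporters themselves, namely Slc4a1ap, Slc9a3r1 and Slc9a3r2. Slc9a3, the apical sodium-proton exchanger NHE3, was not analysed here.

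Along the nephron these proteins do much of the work of reabsorption. The sodium gradient set up by the sodium pump drives cotransport of phosphate, sulfate and dicarboxylates in the proximal tubule. It also drives that of potassium and chloride in the thick ascending limb and of chloride in the distal convoluted tubule. Bicarbonate and anion exchangers of the tubule and of the intercalated cells of the collecting duct set acid-base balance. Zinc is handled by opposed families, with the ZnT proteins (Slc30a) moving it out of the cytosol and the ZIP proteins (Slc39a) moving it in. Sodium, potassium and phosphate excretion follow a daily rhythm in healthy animals.

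Expression was measured in perfused whole kidneys of the NZB/W F1 cross, a mouse model in which lupus nephritis arises spontaneously as the animals grow older. Nephritic kidneys came from mice aged 30 to 45 weeks, taken 2 to 3 weeks after proteinuria reached 300 mg/dl and with blood urea nitrogen under 25 mg/dl, and young kidneys came from mice aged 12 weeks. Nephritic groups held 3 arrays each at Zeitgeber time (ZT) 0, 4, 16 and 20 and 5 each at ZT8 and ZT12, and young groups held 6 arrays at ZT12 and 4 at each of the other times, where ZT0 is lights on and ZT12 lights off. Both groups were of the same cross, the labels name no agent for either, and age and nephritis cannot be told apart. The study counts its kidneys as unique samples of separate mice, so p-values measure the spread between mice. Replicates 3 to 5 of nephritic ZT12 and 4 to 6 of young ZT12 carry title codes of their own (RX and ZT_12) that the labels do not explain, and the study lists a second array set at ZT12. Values are normalized intensities on the log2 scale, on which a difference of 1 is a factor of 2, and levels of different genes are not compared because each probe has its own brightness.

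A set of 8 nephritic arrays stood apart by Pabpc1, a poly(A)-binding protein, which measured 5.94 to 6.69 log2 on them, 8.20 to 9.51 on the other 14 nephritic arrays and 8.52 to 9.37 on the 26 young arrays. They were all 3 arrays of ZT0, all 3 of ZT4 and replicate 3 of ZT16 and of ZT20, so nephritic results were also computed with these arrays left out, over the 4 times from ZT8 to ZT20 in both groups. Members varied more within nephritic groups (median residual SD 0.297 log2) than within young groups (0.17 log2), as did all genes tested (0.263 and 0.164). Detected probes numbered 12706 to 14077 per array. The kidney label fitted the defining markers, since all 6 thick limb genes and 7 of 10 proximal tubule genes of the marker lists were detected, while adrenal genes were near background except in some young kidneys (summed linear intensity of 2 genes 38.4 to 58.2 in nephritic and 38.3 to 238 in young kidneys). In bulk tissue, fewer cells of a type and less RNA per cell cannot be told apart.

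Levels in nephritic and young kidneys were compared first. Averaged over the 6 times, 12 members rose in nephritic kidneys (21.8% of members) against 36.5% of all genes tested, and 16 fell (29.1%) against 28.6%. The other 27 did not pass the test, and the median difference was -0.02 log2 over members and 0.03 over all genes. The rises lay in the Slc4a family (4 of 8, 0 lower), the cation-chloride cotransporters (4 of 7 Slc12a, with 2 lower) and the ZIP zinc transporters (3 of 11 Slc39a, with 4 lower), along with 1 ZnT gene. That ZnT gene, Slc30a7, rose by 0.15 (adjusted p = 0.0388), but its other probe fell by 0.33 (adjusted p = 0.0011). Without the 8 arrays Slc30a7 differed by 0.04 (adjusted p = 0.659). The ZIP gene Slc39a14 was detected on 12 nephritic and 7 young arrays, and its rise of 0.18 (adjusted p = 0.0288) did not pass without the 8 (adjusted p = 0.146). Falls included both dicarboxylate transporters of the Slc13a family, 1 of 3 Slc34a phosphate cotransporters, 3 of 7 ZnT genes and 1 member each of Slc20a, Slc24a, Slc26a and Slc41a. With all arrays none of the 5 Slc9a members and not the single Slc8a member passed (limma, threshold 0.05 after Benjamini-Hochberg adjustment), with differences between -0.23 log2 (Slc8a1) and 0.06 (Slc9a7). For Slc9a8 this depends on the probe, since one dimmer probe fell by 0.44 (adjusted p = 9.02e-07) and another differed by 0.06 (adjusted p = 0.617). Slc9a7 was detected on only 2 nephritic and 1 young arrays, and Slc9a9 on 2 and 2. For no member did every nephritic array lie above every young array (0.943% of all genes) or below every young array (0.0173%). Without the 8 arrays, 11 members rose (background 25.8%) and 11 fell (20.5%), of which 9 and 9 were among those called with all arrays. Among the 2 additional falls was Slc9a3r2 (-0.22, adjusted p = 0.025), whose dimmer probe fell by 0.41 with all arrays (adjusted p = 0.000757). When the 8 arrays were instead given a covariate, 12 of the 28 calls passed, namely the rises of Slc4a2, Slc4a3, Slc4a8, Slc12a4, Slc12a9, Slc39a4 and Slc39a7 and the falls of Slc12a1, Slc30a5, Slc30a6, Slc39a8 and Slc39a13, and the other 16 did not.

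**Figure D1:**
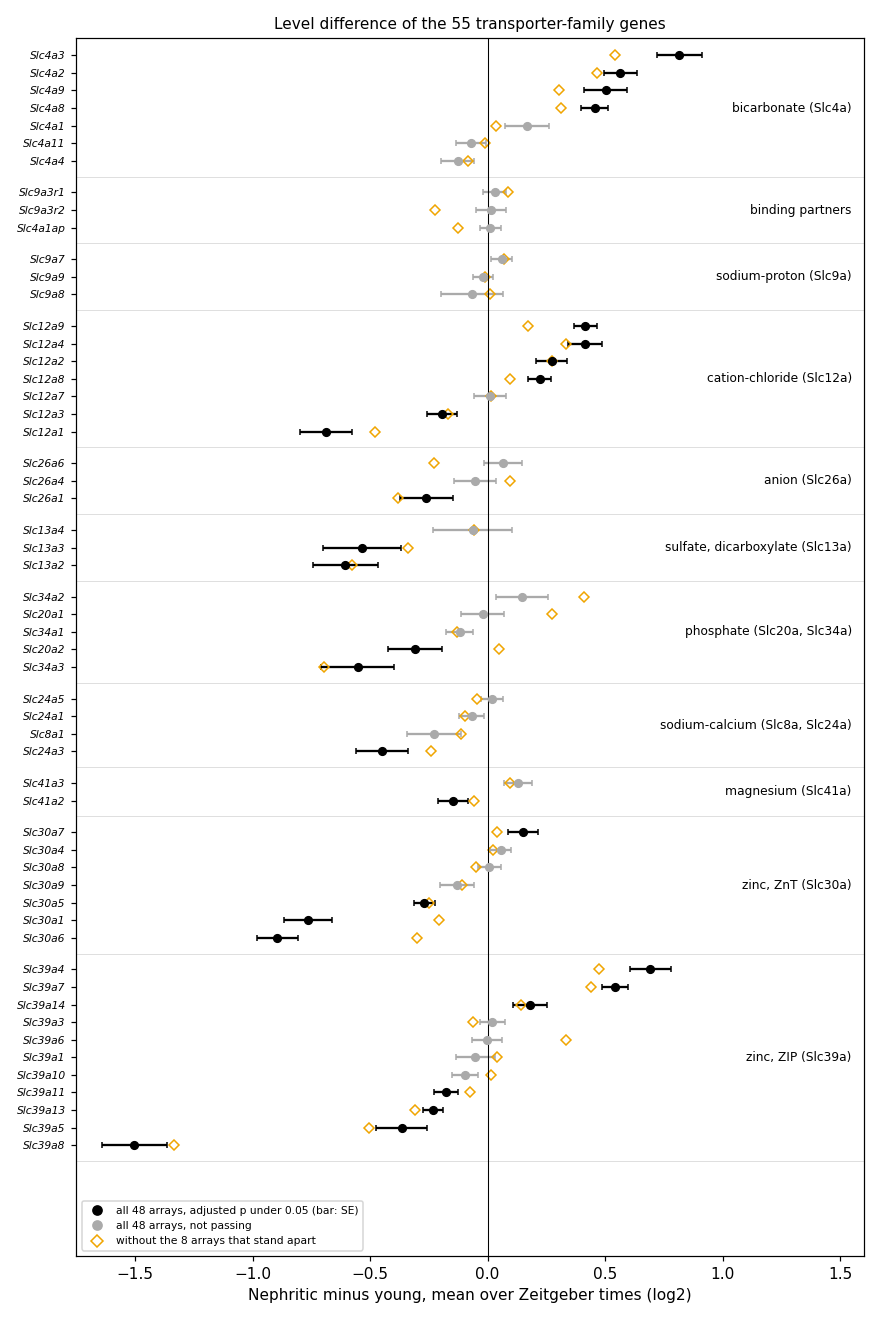
Difference in level between nephritic and young kidneys (log2, mean over Zeitgeber times) for the 55 members, grouped by what they carry. Filled points are fits to all 48 arrays with their SE, black where the adjusted p was under 0.05, and open diamonds are fits without the 8 arrays that stand apart. Slc39a8 lies farthest to the left at -1.50 and Slc4a3 farthest to the right at 0.82.

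The Slc4a family, which holds the bicarbonate transporters, was the family with rises and no falls. Its members Slc4a4 and Slc4a11 lay near background, the latter detected on 9 nephritic and 10 young arrays, so a fall in them could be missed. Slc4a2, which encodes the chloride-bicarbonate exchanger AE2, measured 9.49 to 10.89 log2 (median 9.92) in nephritic kidneys and 9.11 to 9.62 (median 9.46) in young kidneys. Its level was 1.48-fold higher in nephritic kidneys (0.57 ± 0.07 log2, SE, adjusted p = 5.82e-09). All 22 nephritic arrays lay above the young mean of their own time, and 20 lay above every young array. The difference was 0.47 without the 8 arrays (adjusted p = 3.19e-05).

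Slc4a3, which encodes the related exchanger AE3, known mainly from heart and brain, had the largest rise among members. It measured 6.73 to 8.35 log2 (median 7.61) in nephritic kidneys and 6.50 to 7.75 (median 6.80) in young kidneys, a 1.76-fold difference (0.82 ± 0.10 log2, adjusted p = 1.42e-09). The groups overlapped, with 7 nephritic arrays above all young arrays and 21 of 22 above the young mean of their time. The overlap lay mostly with the 3 young arrays of the ZT_12 titles (7.30 to 7.75), since 20 of 22 nephritic arrays lay above the other 23 young arrays, which reached 7.12. Without the ZT_12 and RX titles the difference of Slc4a3 was 0.97 (adjusted p = 2.49e-13). Within those titles no rise was seen, with 6.73 to 7.39 on the nephritic RX arrays and 7.30 to 7.75 on the young ZT_12 arrays. Both other probes of Slc4a3 rose as well, by 0.66 and 0.81 log2.

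Slc4a8, which encodes a sodium-driven chloride-bicarbonate exchanger, measured 6.55 to 7.42 log2 (median 6.88) in nephritic kidneys and 6.19 to 6.89 (median 6.46) in young kidneys, and was 1.37-fold higher (0.46 ± 0.06, adjusted p = 6.19e-09). A dimmer probe of Slc4a8 was higher by 0.17 log2. Slc4a8 too showed no rise within the RX and ZT_12 titles, with 6.57 to 6.87 on the nephritic and 6.76 to 6.89 on the young arrays of these titles. Slc4a9, which encodes AE4 of type B intercalated cells, measured 7.35 to 9.90 log2 (median 7.77) in nephritic kidneys and 7.15 to 7.82 (median 7.44) in young kidneys (0.50 ± 0.09, adjusted p = 6.92e-06). For Slc4a9 all 8 arrays that stand apart lay above all other nephritic arrays (7.88 to 9.90 against 7.35 to 7.85), and ZT0 replicate 3 gave the value of 9.90. Slc4a8 and Slc4a9 were higher without the 8 arrays too, by 0.31 (adjusted p = 0.00121) and 0.30 (adjusted p = 0.000295), but Slc4a9 did not pass with the covariate (0.33, adjusted p = 0.0808).

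The bicarbonate transporters best known from kidney did not pass. Slc4a1, which encodes AE1 of red cells and type A intercalated cells, measured 9.62 to 11.58 log2 (median 10.79) in nephritic kidneys and 10.18 to 10.85 (median 10.69) in young kidneys, a difference of 0.17 ± 0.10 (adjusted p = 0.12). Nephritic arrays of Slc4a1 lay on both sides, with 10 above and 5 below every young array. Slc4a4, the basolateral sodium-bicarbonate cotransporter NBCe1 of the proximal tubule, was detected on 3 nephritic and 11 young arrays, so its difference of -0.13 ± 0.07 (adjusted p = 0.111) rests on values near background. Of the red cell list, which contains Slc4a1, 2 of 3 genes tested were higher in nephritic kidneys, and of 4 intercalated cell genes 3 were higher, but 0 red cell genes and 1 intercalated cell gene were without the 8 arrays. Of all genes tested, 36.5% were higher with all arrays and 25.8% without the 8. The part of red cells and intercalated cells in these values was not tested.

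Of the sodium-chloride reabsorbing cotransporters of the Slc12a family, Slc12a1 fell, and the smaller fall of Slc12a3 did not pass in every setting. Several others of that family rose. Slc12a1, which encodes NKCC2, the target of loop diuretics in the thick ascending limb, measured 10.94 to 12.84 log2 (median 12.23) in nephritic kidneys and 12.46 to 12.91 (median 12.79) in young kidneys. It was 1.61-fold lower in nephritic kidneys (-0.69 ± 0.11 log2, adjusted p = 6.64e-07), with 16 of 22 nephritic arrays below every young array. Both other bright probes of Slc12a1 fell too, by 1.07 and 0.87 log2, whereas a dim probe differed by -0.06 (adjusted p = 0.485). The difference of Slc12a1 was -0.48 without the 8 arrays (adjusted p = 0.00155).

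Slc12a3, which encodes NCC, the target of thiazides in the distal convoluted tubule, measured 11.17 to 12.15 log2 (median 11.81) in nephritic kidneys and 11.69 to 12.18 (median 11.94) in young kidneys. Its difference was small (-0.19 ± 0.06, adjusted p = 0.00802). It was no longer past the threshold without the 8 arrays (-0.17, adjusted p = 0.0852) or with the covariate for them (-0.10, adjusted p = 0.502). Nor did it pass when the code in the sample title was fitted as a random block (-0.20, adjusted p = 0.0501). Another bright probe of Slc12a3 differed by -0.10 (adjusted p = 0.209) and a dimmer one by -0.56 (adjusted p = 0.000814). Among thick limb markers 3 of 6 fell and 1 rose, and among distal convoluted tubule markers 2 of 4 fell and 1 rose. Of all genes tested, 28.6% fell and 36.5% rose. Umod, the most characteristic product of the thick limb, differed by 0.04 log2 (adjusted p = 0.277).

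Slc12a2 encodes NKCC1, the widely expressed sodium-potassium-chloride cotransporter. It measured 8.93 to 10.53 log2 (median 10.17) in nephritic kidneys and 9.61 to 10.31 (median 9.84) in young kidneys, a 1.21-fold rise (0.27 ± 0.07, adjusted p = 0.000403) seen on 20 of 22 nephritic arrays. A second Slc12a2 probe of good brightness moved the other way, by -0.21 (adjusted p = 0.00128), so the direction of this gene depends on the probe, and the rise did not pass with the covariate (0.25, adjusted p = 0.0762).

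Slc12a4, which encodes the potassium-chloride cotransporter KCC1, measured 4.71 to 5.82 log2 (median 5.24) in nephritic kidneys and 4.38 to 5.44 (median 4.79) in young kidneys and was 1.33-fold higher (0.41 ± 0.07, adjusted p = 5.24e-06). Slc12a9, a family member of less settled transport activity, measured 7.04 to 8.05 log2 (median 7.43) in nephritic kidneys and 6.78 to 7.43 (median 7.08) in young kidneys (0.42 ± 0.05, adjusted p = 2.70e-09). Slc12a8 was detected on 19 nephritic and 7 young arrays, with a rise of 0.22 ± 0.05 (adjusted p = 0.000186). With the 8 arrays left out the difference of Slc12a4 was 0.34 (adjusted p = 0.00245), that of Slc12a9 was 0.17 (adjusted p = 0.0257) and that of Slc12a8 was 0.10 (adjusted p = 0.204). Slc12a7, which encodes KCC4, differed by 0.01 (adjusted p = 0.909).

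**Figure D2:**
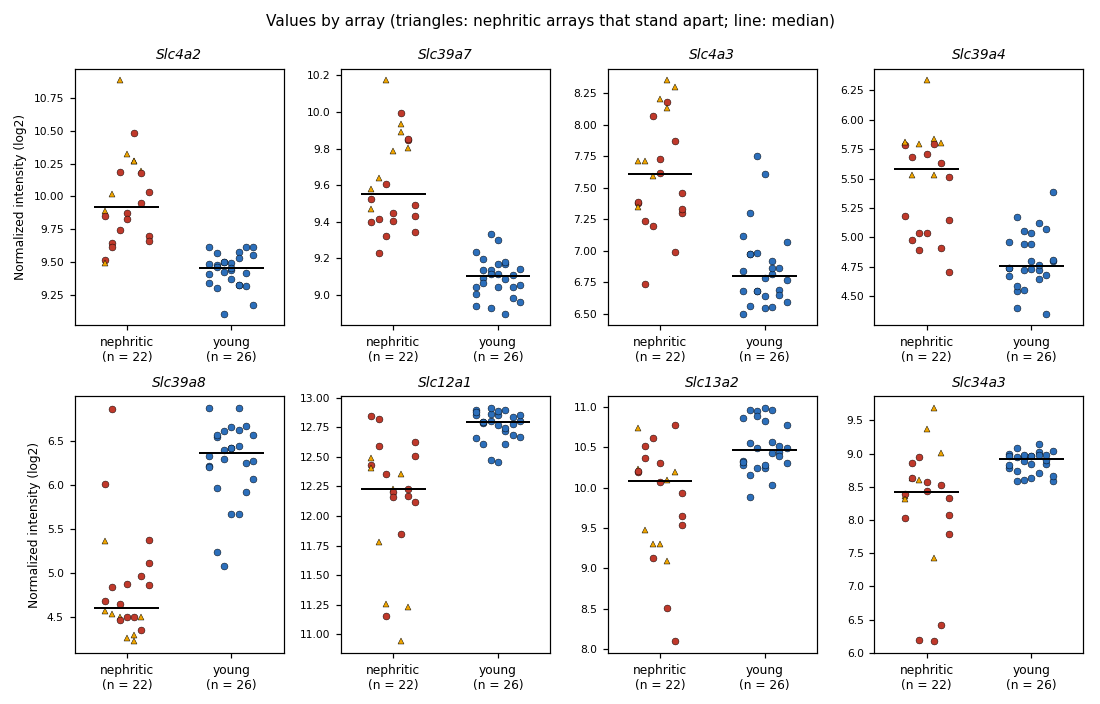
Normalized intensity (log2) of 8 members on every array, with nephritic kidneys left of young kidneys in each panel, triangles for the nephritic arrays that stand apart and lines for the medians. Slc4a2 and Slc39a7 were above every young array on 20 of 22 nephritic arrays, and Slc39a8 was below every young array on 17 of 22.

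Dicarboxylate transporters of the Slc13a family fell. Slc13a2 encodes NaDC1, which reabsorbs citrate and other dicarboxylates at the apical membrane of the proximal tubule. It measured 8.09 to 10.78 log2 (median 10.09) in nephritic kidneys and 9.88 to 10.99 (median 10.47) in young kidneys, a 1.52-fold fall (-0.61 ± 0.14, adjusted p = 0.000193). The groups overlapped, with 9 nephritic arrays below every young array and 4 above the young mean of their time, and the fall of Slc13a2 was -0.58 without the 8 arrays (adjusted p = 0.00988). With the covariate for those arrays it was smaller and did not pass (-0.39, adjusted p = 0.185).

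Slc13a3, which encodes the basolateral partner NaDC3, measured 8.54 to 11.85 log2 (median 11.03) in nephritic kidneys and 10.74 to 11.99 (median 11.27) in young kidneys (-0.53 ± 0.17, adjusted p = 0.00461). It did not pass without the 8 arrays (-0.34, adjusted p = 0.21), and a second bright probe of Slc13a3 did not differ in level (0.00 ± 0.18, adjusted p = 0.986). For both dicarboxylate genes the nephritic range was wider than the young range and reached lower, but it did not reach as high. Of the third member, Slc13a4, the difference was -0.06 (adjusted p = 0.758).

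Among the phosphate cotransporters, Slc34a3 and Slc20a2 passed the test. Slc34a3, which encodes NaPi-IIc of the proximal tubule brush border, measured 6.17 to 9.68 log2 (median 8.42) in nephritic kidneys and 8.59 to 9.14 (median 8.92) in young kidneys. It was 1.47-fold lower in nephritic kidneys (-0.55 ± 0.15, adjusted p = 0.00185) and 1.62-fold lower without the 8 arrays (adjusted p = 0.0113), but with the covariate the difference was -0.25 and did not pass (adjusted p = 0.473). Of the nephritic arrays 14 lay below every young array and 2 above, and the lowest values of Slc34a3 were 6.17 and 6.42 at ZT12 and 6.19 at ZT8.

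Slc34a1, which encodes NaPi-IIa, the main phosphate cotransporter of the proximal tubule, measured 13.08 to 14.03 log2 in nephritic kidneys and 13.75 to 14.06 in young kidneys, with a median of 13.91 in both. Its difference of -0.12 ± 0.06 did not pass (adjusted p = 0.0695), and 5 nephritic arrays lay below every young array. Slc20a2, which encodes the phosphate cotransporter Pit2, measured 6.15 to 9.56 log2 (median 9.05) in nephritic kidneys and 8.70 to 9.65 (median 9.20) in young kidneys (-0.31 ± 0.11, adjusted p = 0.0166). That call for Slc20a2 leaned on few arrays. ZT0 replicate 3 gave the value of 6.15, without it the difference was -0.16 (adjusted p = 0.00218), and without all 8 arrays it was 0.05 (adjusted p = 0.426).

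Markers of the proximal tubule moved with these genes. Of 7 tested, 6 fell and 0 rose (4 and 0 without the 8 arrays), and their summed linear intensity was 9600 to 25500 in nephritic kidneys and 21900 to 26800 in young kidneys. Markers of infiltrating and stromal cells moved the other way, with 6 of 6 myeloid, 4 of 4 T cell, 4 of 4 B and plasma cell and 6 of 6 fibroblast and mural genes higher. Of all genes tested, 36.5% rose and 28.6% fell. The summed myeloid intensity was 553 to 3000 in nephritic kidneys and 348 to 660 in young kidneys. Whether the share of tubule cells carried the falls of Slc13a2, Slc13a3 and Slc34a3 was not tested.

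Few calcium and magnesium carriers passed. Slc24a3, which encodes the potassium-dependent sodium-calcium exchanger NCKX3, measured 7.48 to 9.50 log2 (median 8.41) in nephritic kidneys and 8.39 to 9.54 (median 8.83) in young kidneys, a 1.36-fold fall (-0.45 ± 0.11, adjusted p = 0.000495) that was not past the threshold without the 8 arrays (-0.24, adjusted p = 0.144). Slc8a1, the sodium-calcium exchanger NCX1, differed by -0.23 ± 0.11 (adjusted p = 0.0771), with 5 nephritic arrays above and 8 below all young arrays. The magnesium transporter Slc41a2 fell by 0.15 log2 (adjusted p = 0.0417), and differed by -0.06 without the 8 arrays (adjusted p = 0.616). Pendrin (Slc26a4), the apical chloride-bicarbonate exchanger of type B intercalated cells, differed by -0.05 ± 0.09 (adjusted p = 0.629). The sulfate exchanger Slc26a1 fell by 0.26 (adjusted p = 0.0401), with 8 nephritic arrays below every young array and 1, ZT0 replicate 3, above all of them at 8.99. Its difference was -0.38 without the 8 arrays (adjusted p = 8.33e-05) and -0.09 with the covariate (adjusted p = 0.737). With 1 array left out at a time it lay between -0.40 (without nephritic ZT0 replicate 3, adjusted p = 1.99e-07) and -0.18 (without nephritic ZT0 replicate 2, adjusted p = 0.121).

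The zinc transporters held both the largest fall among members and some of the steadiest rises. Slc39a8, which encodes ZIP8, an importer of zinc and manganese, measured 4.23 to 6.86 log2 (median 4.61) in nephritic kidneys and 5.08 to 6.87 (median 6.36) in young kidneys. It was 2.84-fold lower in nephritic kidneys (-1.50 ± 0.14, adjusted p = 5.40e-12) and 2.52-fold lower without the 8 arrays (adjusted p = 9.86e-06). It was detected on 11 nephritic arrays and on all 26 young arrays, so the fold rests in part on values near background. Of the nephritic arrays 17 lay below every young array, and the other 5, which include 3 of ZT12, lay inside the young range of Slc39a8.

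Slc39a7, which encodes ZIP7 and releases zinc from the endoplasmic reticulum and Golgi, measured 9.23 to 10.17 log2 (median 9.55) in nephritic kidneys and 8.90 to 9.33 (median 9.10) in young kidneys. It was 1.46-fold higher (0.54 ± 0.06, adjusted p = 5.52e-11), with 22 of 22 nephritic arrays above the young mean of the same time and 20 above every young array. The rise of Slc39a7 was 0.44 without the 8 arrays (adjusted p = 1.11e-05). Its other probes disagreed, one of them rising by 0.13 and a dim one falling by 0.32 log2.

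Slc39a4, which encodes ZIP4, the zinc importer of the gut, measured 4.71 to 6.33 log2 (median 5.58) in nephritic kidneys and 4.35 to 5.39 (median 4.75) in young kidneys, where it was detected on 20 of 26 arrays. It was 1.62-fold higher (0.69 ± 0.09, adjusted p = 8.93e-09), and 0.47 log2 higher without the 8 arrays (adjusted p = 0.00115). Slc39a5, which encodes ZIP5, measured 6.85 to 9.42 log2 (median 8.60) in nephritic kidneys and 8.43 to 9.29 (median 8.86) in young kidneys (-0.37 ± 0.11, adjusted p = 0.00333). Its 3 other probes differed by -1.54, -0.11 and 0.02, the last of them dim, so the size of the fall of Slc39a5 depends on the probe. Slc39a5 differed by -0.51 without the 8 arrays (adjusted p = 0.00326) and by -0.08 with the covariate (adjusted p = 0.758).

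Of the zinc exporters, Slc30a6 and Slc30a1 fell most, and for both the 8 arrays that stand apart lay below every other nephritic array. Slc30a6, which encodes ZnT6, the partner of ZnT5 in the secretory pathway, measured 5.72 to 6.07 log2 on those 8 arrays, 7.03 to 7.58 on the other 14 nephritic arrays and 7.19 to 7.90 on the young arrays. Its fall was 1.86-fold with all arrays (-0.89 ± 0.09, adjusted p = 2.79e-11) and 1.23-fold without the 8 (adjusted p = 0.00103). None of the 22 nephritic arrays of Slc30a6 lay above the young mean of its time.

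Slc30a1 encodes ZnT1, which exports zinc through the plasma membrane and is a classical target of the metal-sensing factor MTF1. It measured 4.69 to 5.48 log2 on the 8 arrays, 6.04 to 6.81 on the other nephritic arrays and 5.98 to 7.52 on the young arrays. Its difference was -0.76 ± 0.10 with all arrays (adjusted p = 1.75e-08) but -0.21 without the 8 (adjusted p = 0.131). Slc39a6, which encodes ZIP6, showed the opposite dependence, with -0.00 ± 0.06 over all arrays (adjusted p = 0.963) and a rise of 0.33 without the 8 (adjusted p = 0.000815). Slc30a5, which encodes ZnT5, fell by 0.27 log2 (adjusted p = 1.28e-06) and by 0.25 without the 8 arrays (adjusted p = 0.000615).

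**Figure D3:**
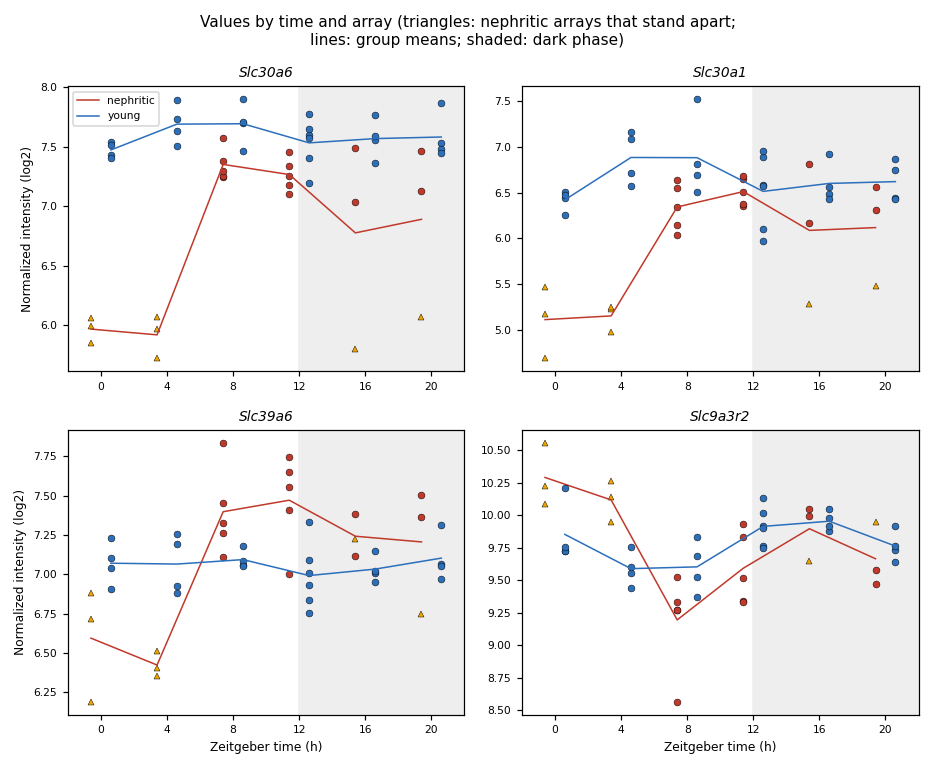
Normalized intensity (log2) against Zeitgeber time (h) for 4 members, 1 point per array, with nephritic arrays drawn left of young arrays at each time, triangles for the nephritic arrays that stand apart and lines for group means. For Slc30a6 and Slc30a1 all 8 triangles lie below all other nephritic points.

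Genes for metallothioneins and for MTF1 were also measured, whereas zinc itself was not. Metallothioneins bind zinc and are induced by MTF1. Mt1 was 1.35-fold higher in nephritic kidneys (0.43 ± 0.07, adjusted p = 1.05e-06) and Mt2 1.37-fold higher (0.45 ± 0.09, adjusted p = 4.69e-05), and both held without the 8 arrays (0.36, adjusted p = 0.00132 for Mt1, and 0.34, adjusted p = 0.0143 for Mt2). Mtf1 itself differed by -0.10 (adjusted p = 0.0732). Over the whole magnesium and zinc list, 4 of 8 genes tested rose and 2 fell, against 2 and 2 without the 8 arrays. Of all genes tested, 36.5% rose and 28.6% fell with all arrays, and 25.8% and 20.5% without the 8.

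The promoters of Slc30a1 and Slc39a8 are shown, both picked after member values were seen. Capitals mark matches to the metal response element core (TGCACNC or TGCGCNC) and to the E-box bound by CLOCK and BMAL1 (CACGTG), searched on both strands. Windows run 250 bases before to 50 after a RefSeq transcript start (build GRCm38.p6), written 5′ to 3′ on the gene's strand.
Slc30a1, chr1:191906531-191906830, plus strand: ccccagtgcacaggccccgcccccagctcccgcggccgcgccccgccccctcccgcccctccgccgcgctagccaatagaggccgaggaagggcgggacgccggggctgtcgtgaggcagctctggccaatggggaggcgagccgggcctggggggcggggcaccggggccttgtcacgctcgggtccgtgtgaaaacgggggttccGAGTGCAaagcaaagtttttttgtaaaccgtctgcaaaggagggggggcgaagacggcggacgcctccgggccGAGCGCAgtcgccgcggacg
Slc39a8, chr3:135825407-135825706, plus strand: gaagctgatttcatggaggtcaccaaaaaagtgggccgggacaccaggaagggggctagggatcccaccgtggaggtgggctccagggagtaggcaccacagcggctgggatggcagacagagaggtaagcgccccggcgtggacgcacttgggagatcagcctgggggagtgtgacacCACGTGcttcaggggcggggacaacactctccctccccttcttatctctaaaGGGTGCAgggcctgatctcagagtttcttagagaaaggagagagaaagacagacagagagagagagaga
The Slc30a1 window held 2 metal response element cores, and the Slc39a8 window shown, of 2 for this gene, held 1 such core and 1 E-box. The windows of Slc30a6 and Slc39a7 held no such core and no E-box. The differences of these genes passed without the 8 arrays, whereas that of Slc30a1 did not. A window was found for 46 of the 55 members, 59 windows in all, of which 40.7% held a metal response element core against 25.7% of all 32851 windows and 16.9% held an E-box against 7.15%. These motifs can share end bases with each other but do not overlap in the windows shown. They were chosen after member values were seen, and a match is a description of the sequence only.

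The daily course of the members was examined in each group on its own. In young kidneys 11 members varied with time (20% of members, background 18.3%), and 7 of these 11 were highest at ZT8, late in the light phase, where 436 of all 2111 varying genes had their highest mean. In nephritic kidneys 9 members varied (16.4%, background 17.2%), with their highest means at ZT4 (4 members), ZT8 (2), ZT12 (2) and ZT0 (1). Slc9a3r2 and Slc26a6 passed in both groups. Each young time other than ZT12 was run under 1 title code, so code and time cannot be told apart there, and a random block for the code left 5 of the 11 past the threshold, namely Slc13a2, Slc13a3, Slc12a7, Slc9a8 and Slc20a2.

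Among members Slc13a2 had the smallest p-value for time in young kidneys. Slc13a2 averaged 10.17 ± 0.20 log2 at ZT0, 10.37 ± 0.09 at ZT4, 10.93 ± 0.07 at ZT8, 10.77 ± 0.19 at ZT12, 10.44 ± 0.11 at ZT16 and 10.24 ± 0.19 at ZT20 in young kidneys (SD), a 1.69-fold range (adjusted p = 3.54e-05). Slc13a3 had its lowest and highest means at the same times, with 10.95 ± 0.24 at ZT0 and 11.64 ± 0.27 at ZT8 (range 0.69, adjusted p = 0.00346). In nephritic kidneys neither passed (adjusted p = 0.519 for Slc13a2 and 0.633 for Slc13a3), and within-group SDs reached 1.02 and 1.35 at ZT12, larger than the whole young range. The test of the difference between time courses did not pass for Slc13a2 (adjusted p = 0.0734) or Slc13a3 (adjusted p = 0.352).

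Slc12a7 (KCC4) averaged 7.36 ± 0.12 log2 at ZT0, 7.64 ± 0.14 at ZT4, 7.93 ± 0.16 at ZT8, 7.64 ± 0.20 at ZT12, 7.26 ± 0.17 at ZT16 and 7.38 ± 0.06 at ZT20 in young kidneys, a 1.58-fold range (adjusted p = 0.000571). In nephritic kidneys it ranged over 0.47 log2 with its lowest mean at ZT12 (adjusted p = 0.344). Its time course differed between the groups (interaction adjusted p = 0.0225) with all arrays and not without the 8 (adjusted p = 0.0508). Slc9a8, which encodes NHE8, a sodium-proton exchanger of the proximal tubule, averaged 10.39 ± 0.23 at ZT8 and 9.77 ± 0.13 at ZT20 in young kidneys (adjusted p = 0.00124), but with the mean of its 3 probes it did not pass (adjusted p = 0.475).

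Slc20a2 (Pit2) was earlier, averaging 9.51 ± 0.12 log2 at ZT4 and 8.87 ± 0.12 at ZT16 in young kidneys (adjusted p = 0.000211). In nephritic kidneys its ZT8 to ZT20 means of 9.48, 9.03, 8.93 and 9.16 stood beside young means of 9.39, 9.11, 8.87 and 9.30, while at ZT0 and ZT4 the nephritic means of 8.01 and 8.98 were below the young means of 9.26 and 9.51. The ZT0 mean of Slc20a2 holds the single value of 6.15. Slc34a3 varied over 0.29 log2 in young kidneys (adjusted p = 0.0421), highest at ZT4.

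Slc26a6, an apical exchanger of chloride with oxalate and bicarbonate, had its highest mean at ZT4 in nephritic kidneys and at ZT8 in young kidneys. Its nephritic means were 6.50 ± 0.62 log2 at ZT0, 7.05 ± 0.22 at ZT4, 6.23 ± 0.22 at ZT8, 5.68 ± 0.28 at ZT12, 6.17 ± 0.20 at ZT16 and 6.06 ± 0.25 at ZT20, and its young means were 5.99 ± 0.19, 6.34 ± 0.20, 6.68 ± 0.19, 6.14 ± 0.35, 6.09 ± 0.16 and 6.07 ± 0.22 at the same times. It passed in nephritic kidneys (adjusted p = 0.00698), in young kidneys (adjusted p = 0.0217) and for the interaction (adjusted p = 0.00317). The nephritic peak at ZT4 consists of arrays that stand apart, and without the 8 arrays Slc26a6 passed neither in nephritic kidneys (adjusted p = 0.331) nor for the interaction (adjusted p = 0.492).

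**Figure D4:**
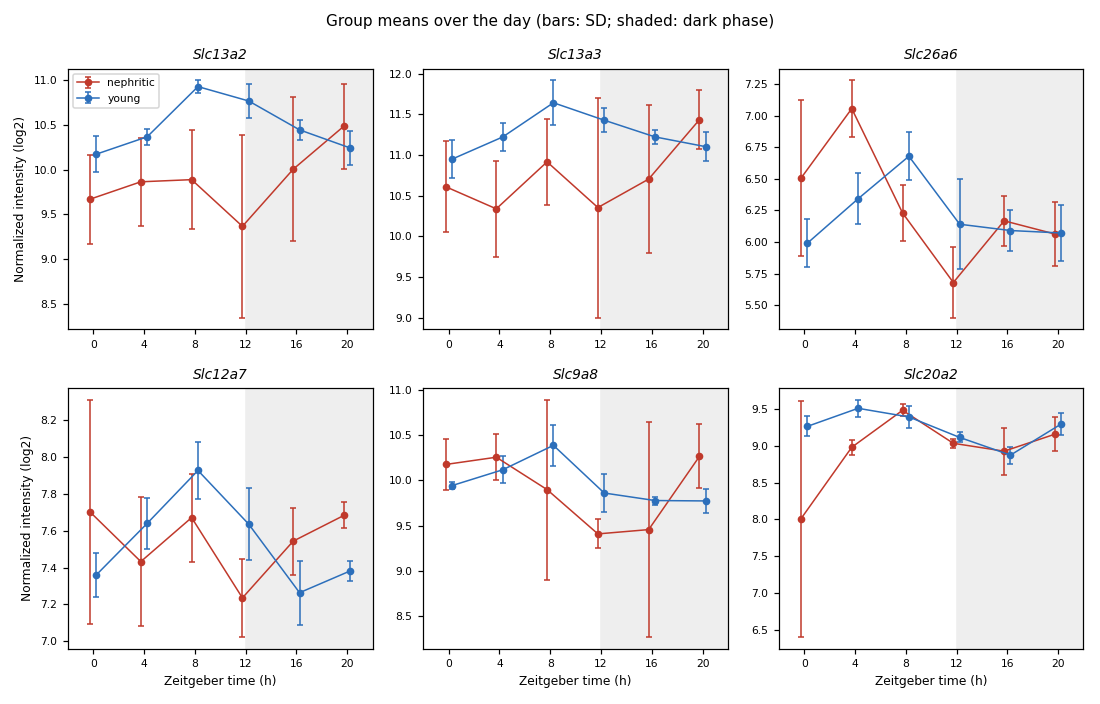
Group means (log2, bars show SD) against Zeitgeber time (h) for 6 members that varied with time in young kidneys, with nephritic kidneys in red and young kidneys in blue. Young means of Slc13a2, Slc13a3, Slc26a6, Slc12a7 and Slc9a8 are highest at ZT8 and those of Slc20a2 at ZT4, and nephritic SDs are wide at several times.

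The scaffold proteins that anchor transporters at the brush border varied with time in young kidneys too. Slc9a3r1 (NHERF1), which holds NHE3 and NaPi-IIa at the membrane, averaged 11.64 ± 0.17 log2 at ZT8 and 11.28 ± 0.04 at ZT20 in young kidneys (adjusted p = 0.0138). Slc9a3r2 (NHERF2) averaged 9.95 ± 0.07 at ZT16 and 9.59 ± 0.13 at ZT4 in young kidneys (adjusted p = 0.041), and in nephritic kidneys 10.29 ± 0.24 at ZT0 and 9.20 ± 0.37 at ZT8 (adjusted p = 0.00777, interaction 0.00411). The nephritic course of Slc9a3r2 did not pass without the 8 arrays (adjusted p = 0.343). Slc24a3 was highest in young kidneys at ZT0, with 9.39 ± 0.12 against 8.58 ± 0.13 at ZT4 (adjusted p = 0.0335), and Slc26a1 ranged over 0.35 log2 (adjusted p = 0.0489).

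Promoters of the 3 ZT8-peaking members that hold an E-box in a window, out of 7, are shown with the E-box in capitals, since this element is the binding site of the clock activators. The same build and window apply, and each sequence is on the strand of its gene.
Slc12a7, chr13:73763410-73763709, plus strand: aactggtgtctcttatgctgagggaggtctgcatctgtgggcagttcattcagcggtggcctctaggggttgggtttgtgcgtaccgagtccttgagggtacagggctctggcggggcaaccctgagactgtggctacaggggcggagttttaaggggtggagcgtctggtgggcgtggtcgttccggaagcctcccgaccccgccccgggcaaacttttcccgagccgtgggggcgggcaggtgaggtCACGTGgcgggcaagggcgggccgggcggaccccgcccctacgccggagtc
Slc13a3, chr2:165473148-165473447, minus strand: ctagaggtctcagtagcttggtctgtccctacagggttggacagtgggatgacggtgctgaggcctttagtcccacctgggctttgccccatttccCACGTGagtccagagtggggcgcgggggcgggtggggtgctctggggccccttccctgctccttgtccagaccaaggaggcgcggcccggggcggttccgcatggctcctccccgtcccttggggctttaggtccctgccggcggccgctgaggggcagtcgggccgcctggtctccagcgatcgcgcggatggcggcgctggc
Slc26a1, chr5:108674747-108675046, minus strand: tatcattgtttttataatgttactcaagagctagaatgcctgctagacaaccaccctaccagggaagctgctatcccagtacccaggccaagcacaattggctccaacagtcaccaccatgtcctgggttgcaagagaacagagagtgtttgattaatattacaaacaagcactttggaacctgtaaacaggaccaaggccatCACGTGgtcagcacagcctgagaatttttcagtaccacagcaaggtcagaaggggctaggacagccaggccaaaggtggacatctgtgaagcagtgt
The windows of Slc13a2, Slc26a6, Slc9a8 and Slc9a3r1 held no CACGTG, which says only that these letters are not in these windows. In all, 9 of the 46 members with a window had an E-box in a window, and 7.15% of all windows held one. A link between E-box and peak time was not tested. Slc26a1 has another window with 0 E-boxes, and its young means at ZT4, ZT8 and ZT20 were close (6.99, 7.04 and 7.01 log2). Of the member windows, 0 held a D-box (TTATGTAA or TTACGTAA, 1.06% of all windows) or the core of a ROR element (TAGGTCA, 2.61%).

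In nephritic kidneys the largest ranges among members that varied were those of Slc30a6, Slc30a1 and Slc26a6. Slc30a6 averaged 5.97 ± 0.11 log2 at ZT0, 5.92 ± 0.18 at ZT4, 7.35 ± 0.14 at ZT8, 7.27 ± 0.14 at ZT12, 6.78 ± 0.87 at ZT16 and 6.89 ± 0.73 at ZT20, a 2.70-fold range (adjusted p = 0.00577), whereas its young means ranged over 0.22 log2 (adjusted p = 0.542). Slc30a1 had a 2.63-fold range (adjusted p = 0.00557) and Slc39a6 a 2.07-fold range (adjusted p = 0.00587), both highest at ZT12. Slc30a6, Slc30a1 and Slc39a6 were low at exactly the times whose nephritic arrays all stand apart, and at ZT16 and ZT20, where 1 of 3 arrays does, that array was the lowest of the 3 for Slc30a6 and Slc30a1. Time and the set of 8 arrays cannot be told apart at ZT0 and ZT4.

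The time course differed between nephritic and young kidneys for 11 members (20% of members, background 21.3%). The smallest interaction p-values were those of Slc39a6 (adjusted p = 0.000742), Slc30a6 (0.000757), Slc30a1 (0.00231), Slc26a6 (0.00317) and Slc9a3r2 (0.00411). Without the 8 arrays 0 members varied with time in nephritic kidneys (background 0.0433%) and 0 passed the interaction (0.502%), by limma. A covariate for the 8 arrays gave 0 and 0 as well (backgrounds 0.242% and 2.01%). At an unadjusted p under 0.05, 18 members varied in nephritic kidneys with all arrays, 7 without the 8 and 9 with the covariate.

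Differences were also counted at single times, where groups differ in size (3 or 5 nephritic and 4 or 6 young arrays). At ZT0, 12 members were higher in nephritic kidneys (background 24.1%) and 10 lower (18.5%), at ZT4 13 were higher (29.1%) and 10 lower (19.4%), at ZT8 2 were higher (12.7%) and 6 lower (8.83%), at ZT12 6 were higher (15.0%) and 9 lower (13.2%), at ZT16 7 were higher (13.9%) and 4 lower (8.69%), and at ZT20 0 were higher (4.18%) and 1 lower (2.41%). At ZT12, where no array stands apart by Pabpc1, the falls were led by Slc13a2 (-1.40 ± 0.28 log2), Slc34a3 (-1.30 ± 0.32), Slc13a3 (-1.07 ± 0.34) and Slc39a5 (-0.97 ± 0.22). Nephritic arrays were widely spread there, with SDs of 1.02, 1.06, 1.35 and 0.77 for these genes in that order. The young SDs at ZT12 were 0.19, 0.12, 0.15 and 0.11. At ZT8, which also holds no array that stands apart, Slc39a8 (-1.35), Slc13a2 (-1.04) and Slc34a3 (-0.97) fell, and Slc4a3 (0.83) and Slc39a7 (0.51) rose. The nephritic SD of Slc34a3 at ZT8 was 1.06. The single member that passed at ZT20 was Slc39a8 (-1.41).

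Genes that work beside these transporters were counted as well. Of all genes tested, 36.5% rose and 28.6% fell with all arrays, and 25.8% and 20.5% without the 8. Of 15 genes for sodium and potassium handling, 7 rose and 3 fell in nephritic kidneys (5 and 3 without the 8 arrays), among them the sodium channel subunit Scnn1b (0.80 ± 0.11 log2, adjusted p = 1.77e-08) and the potassium channel Kcnj1, which recycles potassium for NKCC2 (-0.95 ± 0.11, adjusted p = 4.99e-10). Of 12 acid-base genes, 4 rose and 6 fell (2 and 5 without the 8 arrays), including Car4, the brush border carbonic anhydrase (-1.22 ± 0.14, adjusted p = 1.80e-09), and Glud1, which feeds ammonia production (-1.80 ± 0.17, adjusted p = 1.01e-11). Of 14 phosphate and calcium genes, 2 rose and 6 fell (2 and 3 without the 8 arrays). Kl, the co-receptor of the phosphate hormone FGF23, fell by 0.89 log2 (adjusted p = 2.30e-08), the vitamin D receptor Vdr fell by 0.41 (adjusted p = 9.06e-07) and Cyp27b1, the enzyme that activates vitamin D, rose by 0.80 (adjusted p = 7.23e-05). Each of these 7 named genes passed in the same direction without the 8 arrays.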

How the data were processed

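RNA from perfused kidneys was labelled in 1 colour and hybridized to Illumina MouseRef-8 v2.0 BeadChips, giving 48 arrays. The authors extracted signals with GenomeStudio (version not given in the sources used here). The deposited signal intensity was linear and not normalized between arrays (medians 98.1 to 117.9), and its lowest value of 75 showed no background subtraction. The deposited detection p-value compares a probe with negative control beads. A processed intensity table that the authors deposited served as an alternative scaling.

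Signals were corrected by normexp from the detection p-values (offset 16), quantile-normalized and log2-transformed (neqc, limma 3.58.1, R 4.3.3). Of 25697 probes, 16980 were detected at p under 0.05 on at least 3 arrays, which gave 11559 genes with 1 probe each. Groups were taken from the source names of the labels. Level differences, differences at 1 time and the time by diagnosis interaction came from 12 group means fitted to 48 arrays, and time courses from moderated F-tests in the 22 nephritic and 26 young arrays separately. P-values were adjusted by Benjamini-Hochberg over all genes, with a threshold of 0.05. Values with ± are SE for differences and SD for group means.

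The members, lists and alternatives were chosen with earlier results of these data known. Named with values were the 10 largest rises and 10 largest falls, the 10 largest ranges in young and 5 in nephritic kidneys among members that passed, the 5 smallest interaction p-values, and Slc12a1, Slc12a3, Slc34a1, Slc34a3, Slc4a1, Slc4a4 and Slc26a4 whatever their values. Other members named in the text were chosen after their values were seen. Array number and signal over background limit the precision. The fits were tested on simulated data. No array pair was identical (highest correlation 0.996). Alternatives were another scaling, filters on detection, the mean of probes, array weights, the title code as a block, a 24 h cosinor and each array left out.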

Additional observations from a re-analysis of the deposited data

Results flagged for a closer look

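Among 256 sets of 4 to 6 arrays (32 named members in the 8 groups of that size), 16 held an array far from the rest by Dixon's test, and chance alone flags about 1 set in 20. Of these, 4 were nephritic ZT8 replicate 4, which was low for Slc12a1 (11.16 log2, the others 12.20 to 12.62), Slc9a8 (8.13, the others 10.24 to 10.51), Slc9a3r2 (8.57, the others 9.27 to 9.53) and Slc34a1 (13.42, the others 13.91 to 14.03). Nephritic ZT12 replicate 3 was high for Slc12a9 (7.60, the others 7.26 to 7.34).

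In young kidneys the low arrays were ZT8 replicate 1 for Slc39a8 (5.24 log2, the others 6.39 to 6.44), ZT16 replicate 2 for Slc39a4 (4.35), ZT12 replicate 1 for Slc4a9 (7.17), ZT8 replicate 3 for Slc13a2 (10.82), ZT20 replicate 4 for Slc13a3 (10.84) and ZT0 replicate 3 for Slc34a1 (13.82). The high young arrays were ZT8 replicate 2 for Slc12a8 (4.79), ZT16 replicate 1 for Slc12a1 (12.89), ZT0 replicate 1 for Slc12a7 (7.54), ZT0 replicate 2 for Slc9a3r2 (10.21) and ZT20 replicate 3 for Slc9a3r1 (11.34). Groups of 3, such as nephritic ZT0, were not tested this way.

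The time course differed between nephritic and young kidneys, by limma's interaction test, for Slc39a6 (adjusted p = 0.000742), Slc30a6 (0.000757), Slc30a1 (0.00231), Slc26a6 (0.00317), Slc9a3r2 (0.00411), Slc12a9 (0.00522), Slc12a7 (0.0225), Slc30a9 (0.0225), Slc9a3r1 (0.0382), Slc4a8 (0.0493) and Slc39a5 (0.0498). None of the 11 passed without the 8 arrays that stand apart or with a covariate for them. At ZT0 and ZT4 these arrays and time cannot be told apart.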

How the results depend on the processing

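Without the 8 arrays the members varying with time in nephritic kidneys and those passing the interaction numbered 0 and 0, against 9 and 11 with all arrays, and a covariate for them gave 0 and 0, with 7 members higher and 5 lower. Both settings use fewer arrays or times, or a further coefficient estimated from ZT16 and ZT20 alone. A random block for the title code left 5 members that varied in young kidneys and 0 that passed the interaction. Median scaling gave 19 in young and 4 in nephritic kidneys. Array weights, whose estimation did not converge fully, gave 27 in nephritic kidneys and 21 for the interaction, and leaving out the ZT_12 and RX titles gave 15 in nephritic kidneys. For the block, the scaling, the weights and the titles the cause was not tested. With each array left out in turn, 10 to 13 members were higher, 14 to 19 lower, 7 to 13 varied in young kidneys (7 without young ZT4 replicate 4 or without young ZT8 replicate 3, against 11), 5 to 10 in nephritic kidneys (5 without ZT4 replicate 2) and 8 to 16 passed the interaction. Slc20a2 changed sign without the 8 arrays (0.0501 log2), Slc12a2 was at 0 with the mean of its probes, and Slc26a4, which never passed, was 0.0221 with median scaling, 0.10 with array weights and without the 8 arrays, 0.17 with the covariate and between -0.0958 (without nephritic ZT0 replicate 1) and 0.0225 (without nephritic ZT0 replicate 3) with 1 array left out. No paired analysis was possible because replicate numbers follow the order of the arrays and pair no samples. Detection near background limits Slc39a8, Slc4a4, Slc4a11, Slc9a7, Slc9a9, Slc12a4, Slc12a8 and Slc39a14.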
